A study of Homo sapiens with 6 samples.

Results

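The WNT genes measured in CAL-27 cells comprised 50 genes for WNT ligands, Frizzled receptors, coreceptors, the ligand secretion machinery, inhibitors, the cytoplasmic relay and the TCF/LEF factors. Probes were assigned to them when the RefSeq accession of the probe belonged to a transcript of the gene in GRCh38.p14, which gave 67 probes out of 34127 on the array, where 19740 genes were represented. All 50 genes had at least 1 probe. CAL-27 is an established human tongue squamous cell carcinoma line. Total RNA came from cells stably transduced with an shRNA targeting XBP-1s, the transcription factor made from spliced XBP1 mRNA in the unfolded protein response (shXBP-1s, n = 3), and from cells with a negative control (shCtrl, n = 3). Both groups were the same line, with no further treatment named, and the number of hairpins and whether the cells were clones are not given in the sources used here. Each sample was hybridised to a 1-colour Agilent array with Cy3. The sample labels describe NimbleGen labelling, whereas the paper and the scanner output give an Agilent array. Separate cultures are not stated, so the p-values measure the spread between these samples, which may be technical.

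WNT proteins are secreted lipid-modified ligands that need PORCN and WLS to leave the cell. In the canonical branch they bind a Frizzled receptor together with LRP5 or LRP6, Dishevelled (DVL) is recruited, the destruction complex of AXIN, APC and GSK3B stops marking β-catenin (CTNNB1) for degradation, and β-catenin then activates genes bound by TCF/LEF factors. Other branches run through ROR receptors and the planar polarity proteins, and in stratified squamous epithelium WNT signals are known to bear on proliferation and differentiation.

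Values are given as the log2 of the background-subtracted signal minus the log2 of the 75th percentile of the same array. The difference between groups (shXBP-1s minus shCtrl) was tested with limma on 27624 probes, each above background on the 3 arrays of shCtrl, of shXBP-1s or of both, and a probe passed at a Benjamini-Hochberg adjusted p below 0.05 over these probes. A probe was called when it passed and differed at least 2-fold. Levels of different probes are not comparable. Several probes of 1 gene are numbered from the brightest. Spots above background made up 82.1% to 84.8% of each array, and none was saturated. That 75th percentile was 687.4 to 761.3 on the shCtrl arrays and 792 to 983.4 on the shXBP-1s arrays, so that the groups did not overlap, and this sets what a difference is relative to. Without any scaling the median log2 difference over all tested probes was 0.25, against -0.02 after scaling. All 3 shXBP-1s arrays shared slide 2 with shCtrl replicate 1, while shCtrl replicates 2 and 3 were on slide 1.

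The targeted gene XBP1 gave 1.88, 1.85 and 1.87 on the shCtrl arrays and -0.50, -0.54 and -0.52 on the shXBP-1s arrays. Its level fell by 2.39 on the log2 scale (SE 0.04, adjusted p = 2.81e-07), and the probe was not placed relative to the spliced segment, so both XBP1 forms may contribute. All 8 squamous epithelial marker genes were above background on the 6 arrays. Their summed signal was 74493.7 to 79818.2 in shCtrl and 129463.7 to 136370.6 in shXBP-1s, higher in every shXBP-1s array. Of the fibroblast, endothelial and melanocyte markers, 4 of 5, 4 of 4 and 2 of 3 genes were above background on all arrays, with summed signals of at most 791.5, 289.2 and 206.7 on any array, and the fibroblast marker COL3A1 was not above background on any array. Of 5 leukocyte markers, 4 were on the array and were above background on all 6, at summed signals of 9261.3 to 12398.3 in shCtrl and 11066.5 to 13888.9 in shXBP-1s. The part of any of these markers in the WNT values was not tested. As in any bulk RNA sample, fewer cells with a transcript and less of it per cell cannot be told apart.

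Of the 67 WNT probes, 62 (45 genes) could be tested, and 34 passed, 10 higher and 24 lower in shXBP-1s after scaling to the 75th percentile. Without scaling between arrays the balance was the reverse, with 24 passing, 19 higher and 5 lower, and a median of 0.21 beside 0.25 over all tested probes. The 34 were 54.8% of the tested WNT probes, where 41.7% of all tested probes passed (18.4% higher and 23.3% lower). The lower direction took up 38.7% of the WNT probes and the higher direction 16.1% in the scaled values. Their median log2 difference was -0.06 and their median size, regardless of sign, 0.32, beside -0.02 and 0.23 over all tested probes. Only 3 WNT probes were called at 2-fold (4.84%, with 4.9% of all tested probes called), 1 each of WNT3A and WNT4 lower and 1 of DKK3 higher, where 2.61% of all tested probes were called lower and 2.29% higher. The groups did not overlap for 41 WNT probes (66.1%), beside 52.4% of all tested probes. The single probes of WNT5B, WNT9A, WNT11, FZD8 and FZD10 were not well above background on all arrays of either group and were not tested.

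**Figure D1:**
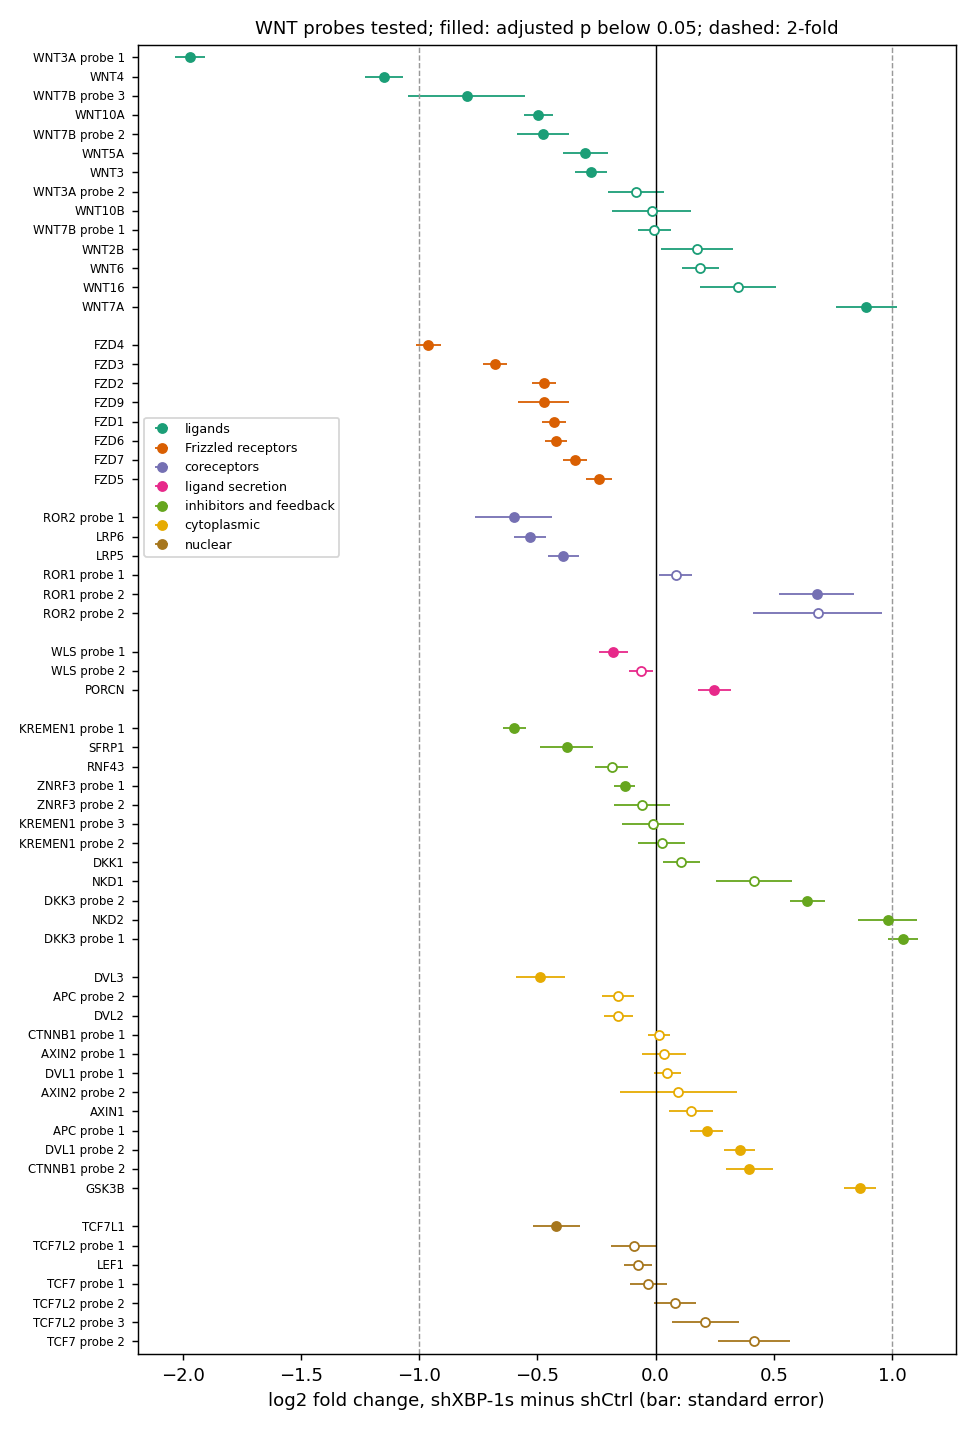
Log2 difference (shXBP-1s minus shCtrl, x axis) of the 62 tested WNT probes by role, with bars for the standard error, filled points for an adjusted p below 0.05 and dashed lines at 2-fold. The 8 Frizzled probes lie between -0.96 and -0.24 and are all filled; without scaling between arrays FZD5 alone turned positive (0.03).

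To show the DNA beside the values, the RefSeq promoters (GRCh38.p14, 250 bases before to 50 after the start on the gene's strand) are printed for the 2 ligands and the receptor with the largest falls of their roles. WNT3A is at chr1:228006748-228007047 on the plus strand, WNT4 at chr1:22143048-22143347 on the minus strand and FZD4 at chr11:86955346-86955645 on the minus strand. Capitals mark ACGTG or its reverse complement CACGT, the core of some of the elements bound by XBP-1s.
WNT3A: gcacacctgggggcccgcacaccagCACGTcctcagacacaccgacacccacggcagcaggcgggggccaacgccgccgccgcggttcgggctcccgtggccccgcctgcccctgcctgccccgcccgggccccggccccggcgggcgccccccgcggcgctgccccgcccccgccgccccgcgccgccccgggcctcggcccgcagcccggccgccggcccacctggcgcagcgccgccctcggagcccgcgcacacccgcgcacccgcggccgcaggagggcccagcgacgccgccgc
WNT4: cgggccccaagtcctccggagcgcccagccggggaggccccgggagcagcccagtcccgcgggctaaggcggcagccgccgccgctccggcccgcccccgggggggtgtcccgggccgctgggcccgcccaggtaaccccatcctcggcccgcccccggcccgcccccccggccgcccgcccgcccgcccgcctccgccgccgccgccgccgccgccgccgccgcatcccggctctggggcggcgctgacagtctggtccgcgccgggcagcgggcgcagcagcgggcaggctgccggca
FZD4: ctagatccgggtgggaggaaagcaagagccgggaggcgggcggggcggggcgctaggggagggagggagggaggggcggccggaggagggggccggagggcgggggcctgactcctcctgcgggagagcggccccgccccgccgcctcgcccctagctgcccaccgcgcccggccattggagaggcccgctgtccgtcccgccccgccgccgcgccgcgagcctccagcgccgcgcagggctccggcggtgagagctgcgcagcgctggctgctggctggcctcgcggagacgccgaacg
The WNT3A window held 1 match, at position -225 from the start, and the WNT4 and FZD4 windows held none. Searched on both strands, ACGTG was in 21.4% of 35116 RefSeq promoters and in 5 of 45 promoters (11.1%) of the 35 WNT genes with an entry. These belonged to APC, DVL2, TCF7L1, TCF7L2 and WNT3A. The longer letters TGACGTG, which contain ACGTG, were in 1.97% of all promoters and in that of TCF7L2 among the WNT genes. The ER stress element, CCAAT and CCACG set 9 bases apart, was in 0.0769% of all promoters and in no WNT promoter. Of the TCF/LEF sites, CTTTGAT was in 2.62% of all promoters and in none of the WNT genes', and CTTTGAA in 4.43% of all and in that of DKK1. A match is a run of letters and says nothing about binding.

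Among the ligands, 7 of 14 tested probes fell, 1 rose and 6 did not pass, with a median of -0.18. The passing share was 57.1%, beside 41.7% of all tested probes. Without scaling, 2 passed in each direction and the median was 0.10. WNT3A, a canonical ligand, had the largest fall among the WNT probes. Its brighter probe read -0.33, -0.14 and -0.17 on the shCtrl arrays and -2.15, -2.19 and -2.20 on the shXBP-1s arrays, where the groups lay far apart. The level was 3.91-fold lower (log2 difference -1.97, SE 0.06, adjusted p = 1.36e-06). The other WNT3A probe, on the same RefSeq transcript, had overlapping groups, at -3.60, -3.50 and -3.39 in shCtrl and -3.52, -3.40 and -3.81 in shXBP-1s. Its difference was -0.08 (adjusted p = 0.621) and changed sign without scaling (0.19), with the slide as a block (0.03) and without shXBP-1s replicate 3 (0.035). The fall of WNT3A was seen at 1 of its 2 probes.

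WNT4, a ligand with roles in epithelial and kidney development, gave -2.58, -2.33 and -2.49 in shCtrl and -3.58, -3.64 and -3.63 in shXBP-1s. Every shXBP-1s array was below every shCtrl array. The level was 2.22-fold lower (log2 difference -1.15, SE 0.08, adjusted p = 2.12e-05), and less than 2-fold with normexp and quantile normalization (-0.64) or without scaling (-0.88). WNT7A, an epithelial ligand, went the other way, from -5.41, -5.70 and -5.59 in shCtrl to -4.64, -4.58 and -4.81 in shXBP-1s. It rose by 0.89 (SE 0.13, adjusted p = 0.000902), and was at -0.68 (adjusted p = 0.479) with normexp background correction at the 75th percentile but at 0.15 (adjusted p = 0.0187) with normexp followed by quantile normalization.

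The remaining ligand probes that passed, chosen here after their values were seen, were those of WNT10A (-0.50), WNT5A (-0.30), WNT3 (-0.27) and WNT7B. WNT5A is the best known ligand of the ROR receptors. WNT10A fell from -2.30 ± 0.06 to -2.79 ± 0.03 (SD, n = 3, adjusted p = 0.000368). The adjusted p was 0.0392 for WNT5A and 0.0133 for WNT3. Without scaling WNT10A was at -0.22 (adjusted p = 0.238), WNT5A at -0.02 (adjusted p = 0.903) and WNT3 at -0.001 (adjusted p = 0.994). With the slide as a block WNT5A was at -0.115 and WNT3 at -0.175. WNT5A also did not pass with quantile normalization (-0.27, adjusted p = 0.0709). The probes of WNT7B differed by -0.01, -0.47 and -0.80, with adjusted p of 0.962, 0.00901 and 0.0335. Without scaling they were at 0.27, -0.20 and -0.53 and none passed. With the slide as a block they were at -0.02, -0.48 and -0.325. The other tested ligands WNT2B, WNT6, WNT10B and WNT16 had differences of 0.17, 0.19, -0.02 and 0.35 and did not pass.

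**Figure D2:**
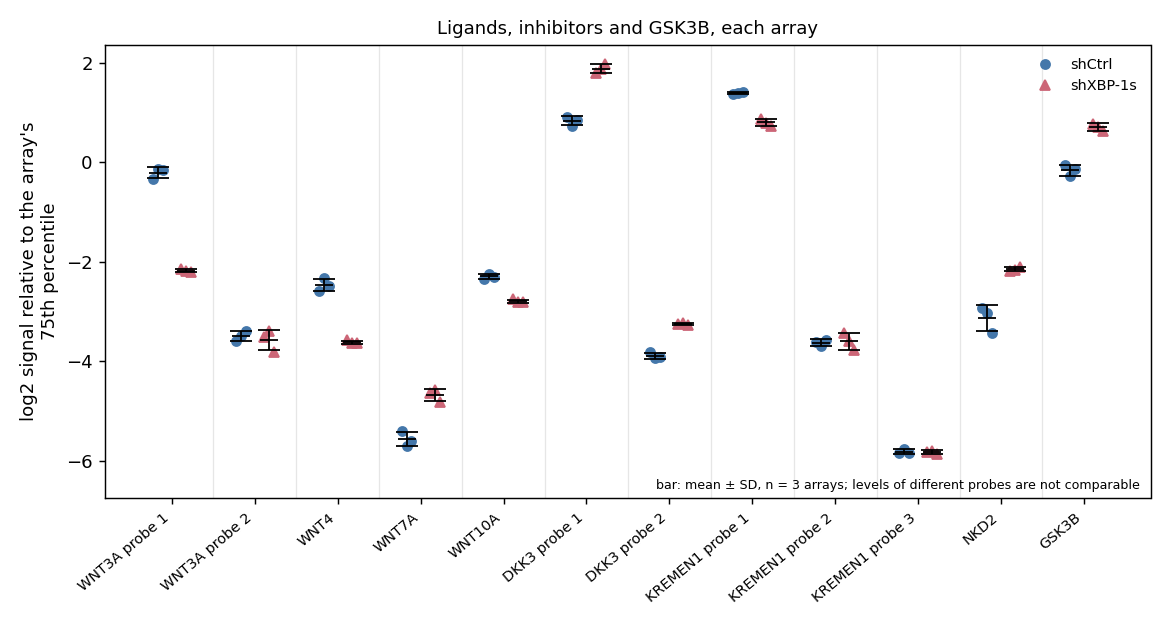
Level on each array (y axis, log2 signal relative to the array's 75th percentile) for ligand and inhibitor probes and GSK3B, circles for shCtrl, triangles for shXBP-1s and bars for the mean ± SD of 3 arrays. WNT3A probe 1, WNT4, WNT10A and KREMEN1 probe 1 lie lower and WNT7A, DKK3, NKD2 and GSK3B higher in shXBP-1s, while the other WNT3A and KREMEN1 probes overlap; with normexp at the 75th percentile, but not with normexp and quantile normalization, the WNT7A and dimmer DKK3 differences turned negative.

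The Frizzled genes encode the receptors for WNT ligands. All 8 tested Frizzled probes, 1 per gene, fell after scaling to the 75th percentile, from -0.24 for FZD5 to -0.96 for FZD4 with a median of -0.45, whereas without scaling FZD5 was at 0.03. Of all tested probes, 23.3% passed lower. In each of the 8 genes the groups did not overlap after scaling, as was so for 52.4% of all tested probes. FZD4, also the receptor for norrin, read -0.20, -0.07 and -0.08 in shCtrl and -1.04, -1.10 and -1.08 in shXBP-1s. It was 1.95-fold lower (log2 difference -0.96, SE 0.05, adjusted p = 7.2e-06). FZD6, which acts in planar polarity, read 2.68, 2.77 and 2.74 in shCtrl and 2.29, 2.29 and 2.35 in shXBP-1s. The gap between its groups was several times their spread, and its difference was -0.42 (SE 0.05, adjusted p = 0.000192).

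The 6 other tested Frizzled genes are given alongside. FZD3, known for axon guidance, read -0.58, -0.66 and -0.69 in shCtrl and -1.32, -1.33 and -1.31 in shXBP-1s, a difference of -0.68 (SE 0.05, adjusted p = 2.78e-05). FZD2, a receptor for WNT5A among others, went from 0.29 ± 0.06 to -0.18 ± 0.05 (SD, n = 3), a difference of -0.47. FZD9 went from -3.15 ± 0.19 to -3.62 ± 0.09, also -0.47, and its spread in shCtrl was the widest of the 8 tested genes. FZD1 went from 0.49 ± 0.02 to 0.06 ± 0.07, a difference of -0.43. FZD7 went from -0.31 ± 0.06 to -0.65 ± 0.05, a difference of -0.34. FZD5 had the smallest difference, from -0.32 ± 0.06 to -0.56 ± 0.06 (-0.24, adjusted p = 0.00914).

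**Figure D3:**
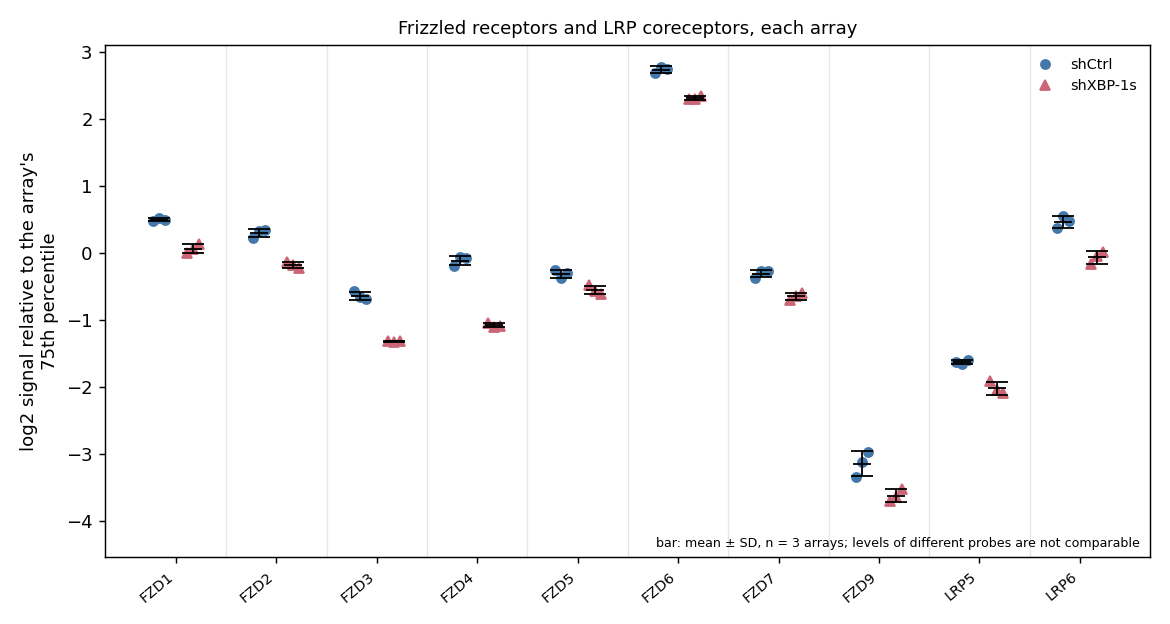
Level on each array (y axis, log2 signal relative to the array's 75th percentile) for the Frizzled and LRP probes, circles for shCtrl, triangles for shXBP-1s and bars for the mean ± SD of 3 arrays. In each of the 10 probes every shXBP-1s array lies below every shCtrl array, with differences from -0.96 (FZD4) to -0.24 (FZD5, at 0.03 without scaling). The groups did not overlap for 52.4% of all tested probes.

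How far the Frizzled fall held depended on the scaling. Without scaling between arrays, 7 of 8 differences were still below 0 (median -0.18, where the median of all tested probes was 0.25), but only FZD3 (-0.41) and FZD4 (-0.69) passed and kept their groups apart. With normexp at the 75th percentile, 5 of 8 passed, and the family median of -0.39 was close to that of all tested probes (-0.41). With normexp followed by quantile normalization, all 8 passed, with a median of -0.37 beside -0.003 over all tested probes. With the slide as a block, which takes the difference against shCtrl replicate 1 on the shared slide, the 8 differences lay between -0.27 and -0.88 and 7 passed, FZD9 (-0.27, adjusted p = 0.12) being the exception.

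**Figure D4:**
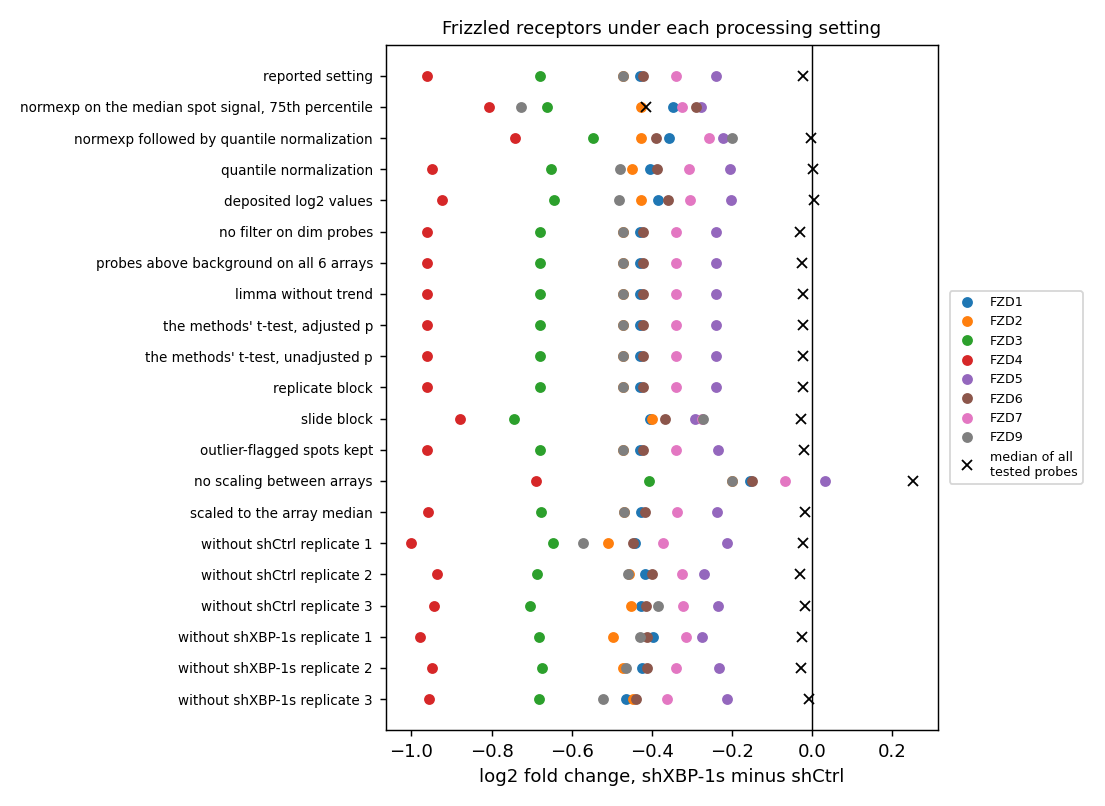
Log2 difference (shXBP-1s minus shCtrl, x axis) of the 8 Frizzled probes under each processing setting (rows), with a cross for the median of all tested probes. Every value is below 0 except FZD5 without scaling (0.03), and with normexp at the 75th percentile the probes lie on both sides of the cross.

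Coreceptors were divided, with 1 of 6 probes that rose and 3 that fell (2 and 0 passing without scaling). The passing share was 66.7%, beside 41.7% of all tested probes. LRP6, the LDL receptor-related partner of Frizzled in the canonical branch, gave 0.37, 0.54 and 0.48 in shCtrl and -0.17, -0.05 and 0.01 in shXBP-1s. No values of the groups overlapped, and its level fell by 0.53 (SE 0.07, adjusted p = 0.000444). LRP5, its close relative, fell by 0.39 (SE 0.07, adjusted p = 0.00184), from -1.63 ± 0.03 to -2.02 ± 0.10 (SD, n = 3). Without scaling LRP6 was at -0.26 (adjusted p = 0.102) and LRP5 at -0.12 (adjusted p = 0.536). The receptor tyrosine kinases ROR1 and ROR2 gave unlike probes. ROR1 probe 2 rose by 0.68 (adjusted p = 0.00993). It was at -0.37 with normexp at the 75th percentile and at 0.30 (adjusted p = 0.0126) with normexp and quantile normalization. On shCtrl replicate 1 it read -4.02, and on replicates 2 and 3 -4.56 and -4.58. With the slide as a block its difference was 0.32, and with the methods' t-test it did not pass (adjusted p = 0.0675). ROR1 probe 1 was at 0.09 (adjusted p = 0.365). ROR2 probe 1 fell by 0.60 (adjusted p = 0.0191), while ROR2 probe 2, lowest on shCtrl replicates 2 and 3 (-6.60 and -6.76) and at -5.72 on replicate 1, was at 0.69 (adjusted p = 0.0783). The ROR1 pair carries different transcript accessions, and the ROR2 pair the same one.

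In the secretion machinery, PORCN, the acyltransferase that lipidates WNT proteins, rose by 0.25 (SE 0.07, adjusted p = 0.0209). It read 0.71, 0.78 and 0.71 in shCtrl and 0.86, 0.98 and 1.12 in shXBP-1s, with no overlap. WLS, the carrier of WNT proteins to the surface, had 1 probe just past the threshold (-0.18, adjusted p = 0.0481) and 1 that did not pass (-0.06, adjusted p = 0.361), and the signs of both turned without scaling (0.09 and 0.21).

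Of 12 probes for inhibitors and feedback regulators, 3 rose, 3 fell and 6 did not pass, with a median of 0.01 (5 and 1 passing without scaling, median 0.28). The passing share was 50%, beside 41.7% of all tested probes. DKK3, a secreted Dickkopf relative, was the only WNT gene called higher. Its brighter probe read 0.91, 0.73 and 0.85 in shCtrl and 1.80, 1.87 and 1.97 in shXBP-1s, a 2.06-fold rise (log2 difference 1.05, SE 0.07, adjusted p = 1.13e-05). The dimmer probe rose by 0.64 (SE 0.07, adjusted p = 0.000241) but was at -0.27 with normexp at the 75th percentile (0.33, adjusted p = 0.000285, with normexp and quantile normalization). Both probes kept their groups apart. With the slide as a block the brighter probe was at 0.97, short of 2-fold. DKK1, a secreted blocker of LRP5 and LRP6, had the brightest probe of this role, whose values overlapped between shCtrl (3.11, 2.82 and 3.005) and shXBP-1s (3.12, 3.13 and 3.01). Its difference was 0.11 (95% interval -0.07 to 0.29, adjusted p = 0.3), with -0.02 with the slide as a block. DKK1 passed as higher with normexp at the 75th percentile (0.27, adjusted p = 0.0258) and without scaling (0.38, adjusted p = 0.00661). With normexp and quantile normalization it did not pass (0.18, adjusted p = 0.232).

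KREMEN1, a receptor for Dickkopf proteins, gave 1.37, 1.40 and 1.41 in shCtrl and 0.87, 0.78 and 0.73 in shXBP-1s at its brightest probe, which fell by 0.60 (SE 0.05, adjusted p = 4.82e-05). Its other probes did not pass (0.03 and -0.01). The remaining members of this role were picked out after their values were seen. NKD2, which binds Dishevelled and dampens the signal, read -2.93, -3.03 and -3.43 in shCtrl and -2.18, -2.16 and -2.10 in shXBP-1s. The groups lay apart and it rose by 0.98 (SE 0.12, adjusted p = 0.000434). It passed 2-fold without shCtrl replicate 1 (1.08) and was at 0.27 (adjusted p = 0.503) with normexp at the 75th percentile and at 0.65 (adjusted p = 0.000408) with normexp and quantile normalization. SFRP1, a secreted Frizzled-like antagonist, fell by 0.38 (adjusted p = 0.0279). It stayed below 0 in all settings but did not pass in several. Among these were no scaling (-0.10, adjusted p = 0.681) and the methods' t-test (adjusted p = 0.0628). The ubiquitin ligase ZNRF3, which removes Frizzled from the surface, had 1 probe that fell by 0.13 (adjusted p = 0.0473) but was at 0.14 without scaling, and 1 probe at -0.06. Its relative RNF43 (-0.18) and the NKD2 relative NKD1 (0.42) did not pass.

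In the cytoplasmic relay, 4 of 12 probes rose, 1 fell and 7 did not pass, with a median of 0.07 (7 and 0 passing without scaling). The passing share, 41.7%, was that of all tested probes (41.7%). GSK3B, the kinase that marks β-catenin for degradation, read -0.07, -0.28 and -0.13 in shCtrl and 0.77, 0.71 and 0.62 in shXBP-1s. The groups lay well apart, and GSK3B rose 1.82-fold (log2 difference 0.86, SE 0.07, adjusted p = 3.84e-05). Across all settings its difference stayed between 0.77 and 1.14. DVL3 fell by 0.49 (SE 0.10, adjusted p = 0.00622). The brighter DVL1 probe was at 0.05 (adjusted p = 0.533), and the dimmer one rose by 0.35 (adjusted p = 0.00274) but was at -0.13 with normexp at the 75th percentile (0.26, adjusted p = 0.00144, with normexp and quantile normalization).

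β-catenin itself is regulated mainly by protein stability, which the array does not measure. The brighter CTNNB1 probe differed by 0.01 (95% interval -0.095 to 0.12 on the log2 scale, adjusted p = 0.853). Without scaling it was at 0.285 (adjusted p = 0.0384). The dimmer CTNNB1 probe, for another transcript accession, rose by 0.40 (adjusted p = 0.013). It was at -0.17 with normexp at the 75th percentile (0.23, adjusted p = 0.0144, with normexp and quantile normalization). Of the scaffold genes, 1 APC probe rose by 0.22 (adjusted p = 0.0386), and the other APC probe (-0.16) and those of AXIN1 (0.15), AXIN2 (0.04 and 0.10) and DVL2 (-0.16) did not pass. The rising APC probe stayed above 0 in all settings. It lost its pass in several, among them no filter on dim probes (adjusted p = 0.0503) and the methods' t-test (adjusted p = 0.117).

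The TCF/LEF factors bind DNA and recruit β-catenin. TCF7L1, known mostly as a repressor, read -1.75, -1.38 and -1.56 in shCtrl and -2.09, -1.94 and -1.91 in shXBP-1s and fell by 0.42 (SE 0.10, adjusted p = 0.0101). It was the only one of 7 nuclear probes that passed (2 passed, both higher, without scaling, TCF7L1 not among them). That is 14.3%, beside 41.7% of all tested probes. LEF1 overlapped between groups, with a difference of -0.08 (95% interval -0.21 to 0.06, adjusted p = 0.344), and was at 0.20 without scaling. The probes of TCF7 (-0.03 and 0.42) and TCF7L2 (-0.09, 0.08 and 0.21) did not pass.

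Genes with several probes were often not of 1 kind. Of the 45 tested genes, 31 had 1 tested probe and 14 had more. Of those 14, all probes passed in 1 gene (DKK3), some in 10 and none in 3, and the probes differed in sign in 5. No WNT gene had probes that passed in opposite directions with the values as reported. ROR2 did without shCtrl replicate 1 (-0.46, adjusted p = 0.0332, and 1.005, adjusted p = 0.00216) and with normexp and quantile normalization (-0.13, adjusted p = 0.0227, and 0.14, adjusted p = 0.0391).

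A list of 71 other pathway genes, with 73 tested probes for 57 genes, held 10 that rose and 21 that fell, 42.5% passing beside the 41.7% of all tested probes. Its median was -0.05, and without scaling 22 were higher and 7 lower. The 21 that fell include the dim RSPO3 probe given next. Of the 69 probes above background on all 6 arrays, 10 rose and 20 fell. RSPO3, a secreted amplifier of WNT signals, had a dim probe at -5.91, -5.33 and -5.56 in shCtrl that was not well above background on any shXBP-1s array. This makes it at least 2.9-fold lower. It entered the test only through shCtrl, so its p-value is not given. The bound sets the shCtrl mean against the lowest signal that counted as above background on each shXBP-1s array. The other RSPO3 probe, above background on all 6 arrays, was at -0.15 (adjusted p = 0.395). CELSR2, a planar polarity cadherin, fell by 1.03 (SE 0.11, adjusted p = 0.000188). PRICKLE1, of the same branch, rose by 1.08 (SE 0.09, adjusted p = 5.4e-05), and FRZB, a secreted Frizzled-related antagonist, rose by 1.06 (SE 0.15, adjusted p = 0.000693). Of the corepressor TLE4, the brighter probe fell by 1.02 (adjusted p = 6.86e-06) and the dimmer rose by 0.225 (adjusted p = 0.0208), so that its probes passed in opposite directions. So did those of CTNNBIP1 (-0.57, adjusted p = 0.000231, and 0.845, adjusted p = 2.92e-05). The same held for CSNK1G3 (-0.31, adjusted p = 0.00155, and 0.96, adjusted p = 4.54e-06).

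Genes listed as transcriptional targets of the canonical branch were read in 2 sets. Of the 10 probes for the 7 targets that are themselves WNT pathway members, AXIN2 among them, 1 fell (ZNRF3) and 9 did not pass, with a median of 0.00. Passing probes made up 10% here, beside 41.7% of all tested probes. The ZNRF3 probe did not pass with quantile normalization (-0.09, adjusted p = 0.137). Of 23 tested probes for 18 other listed targets, many of which answer to other signals too, 12 rose, 6 fell and 5 did not pass, with a median of 0.38. These were 52.2% higher and 26.1% lower, beside 18.4% and 23.3% of all tested probes, and over both sets without scaling 15 probes passed higher and 2 lower. JUN, an AP-1 subunit, rose by 1.375 (adjusted p = 4.79e-06) and SOX9, a transcription factor, by 1.23 (adjusted p = 1.06e-05). CCND1, cyclin D1, fell by 1.30 (adjusted p = 1.04e-05). For each of these probes the groups did not overlap, as was so for 52.4% of all tested probes. LGR5, NOTUM, APCDD1 and TNFRSF19 could not be tested.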

How the data were processed

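Gene expression was measured on 6 1-colour Agilent arrays, 3 per group, and groups came from the sample labels. For every array the authors deposited scanner output from Agilent Feature Extraction 11.0.1.1. Its intensity per spot is background-subtracted but not normalized between arrays. A second deposited table holds log2 values with equal medians on all arrays (6.27), for which the submitters' processing notes name RMA, and it served as an alternative. No column of the files was left without a sample (0).

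From the deposited intensity, log2 was taken and the log2 of the array's 75th percentile over non-control spots subtracted. Between 230 and 377 outlier-flagged spots per array were left out, spots of a probe were averaged, and 19 probes without an unflagged spot on some array were dropped. A probe was above background when more than 50% of its spots were. Symbols came from matching unversioned accessions to RefSeq transcripts of GRCh38.p14 (25771 of 34127 probes). The 27624 probes above background on all arrays of a group were fitted with limma 3.58.1 in R 4.3.3 (trended eBayes after lmFit), 2-sided, with Benjamini-Hochberg adjustment over all of them. On simulated data with these probes' means and spreads, 192 of 200 changed probes were recovered, with 2 false calls. Only 200 of 27624 probes were changed there, whereas 41.7% passed in the data, so these counts give no error rate for the calls reported here. The methods name no normalization or threshold for the arrays. With 3 arrays per group an exact permutation test of 1 probe cannot go below 0.1, and the number of arrays limits the precision.

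The WNT genes, the pathway, target and marker lists and the rule for named genes were chosen with earlier results of these data known. The rule named XBP1, every WNT gene with a called probe, and in each role the gene with the brightest probe and those with the largest passing rise and fall. The lists were written from general knowledge. Alternatives were normexp background correction (offset 50) with 2 scalings, quantile normalization, the methods' t-test, untrended limma, a stricter and no filter on dim probes, the authors' log2 table, a 1.5-fold threshold, the replicate number or slide as a block, outlier-flagged spots kept, and leaving out each array. No scaling and scaling to the array median were chosen after seeing the data. Replicate numbers did not pair the samples (correlations of deviations -0.016, 0.117 and -0.116). The values of 1 gene of the target list are not reported here.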

Additional observations from a re-analysis of the deposited data

How the results depend on the processing

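Of the 34 WNT probes that passed, the count moved to 13 (4 higher, 9 lower) with normexp at the 75th percentile and to 22 (7 higher, 15 lower) with the slide as a block. Without scaling between arrays it was 24, and the balance of directions reversed (19 higher, 5 lower). It lay between 27 and 32 when each array was left out. The other normexp setting, followed by quantile normalization, passed 34 (13 higher, 21 lower). Normexp, set out for each spot's mean signal, was applied to its median signal, since no mean column was in the tables used here. At the 75th percentile it shifted the median of all tested probes to -0.41, and no scaling to 0.25. Calls at 2-fold went from 3 to 5 without scaling (4 higher, 1 lower), to 13 at 1.5-fold, and to between 3 and 7 when each array was left out; the 7 came without shCtrl replicate 1, adding FZD4, NKD2, ROR2 and WNT7B. Without shCtrl replicate 2 DKK3 fell short of 2-fold and NKD2 passed it. The methods' t-test passed 30 of the 34 at an unadjusted p below 0.05 and 22 of them after Benjamini-Hochberg adjustment. Counting each gene by its brightest probe (28 passing), the count was 13 with normexp at the 75th percentile and 17 without scaling (12 higher, 5 lower), and 22 to 26 when each array was left out. The other pathway probes (31 passing) went to 15 with normexp at the 75th percentile, 29 without scaling (22 higher, 7 lower) and 24 to 35 when each array was left out, and the target probes (19 passing) to 12 and 16 to 18. XBP1 stayed between -2.40 and -2.38 when each array was left out.

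The replicate numbers share no stated source; with the replicate number as a block, 31 WNT probes passed and 3 were called, and no value changed sign.

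The lists below keep to genes named by the rule, and other WNT probes turned too. Of 62 tested WNT probes, 36 were below 0 with the values as reported. The count was 54 with normexp at the 75th percentile, 21 without scaling and 37 under the slide block. Outside the rule, passing probes turned for CTNNB1 with that normexp setting (-0.168), and for FZD5 (0.033) and ZNRF3 (0.142) without scaling. Among the named genes, signs turned with normexp at the 75th percentile for WNT7A (-0.68), ROR1 (-0.45 and -0.37) and ROR2 probe 2 (-0.74). They also turned there for the dimmer DKK3 probe (-0.27), KREMEN1 probe 2 (-0.52) and the dimmer DVL1 probe (-0.13). None of these turned with normexp and quantile normalization. Without scaling signs turned for the second WNT3A probe (0.19), WLS (0.093 and 0.21), KREMEN1 probe 3 (0.26) and LEF1 (0.20). With the slide as a block they turned for the second WNT3A probe (0.026), DKK1 (-0.022) and KREMEN1 probe 3 (0.015). When each array was left out, KREMEN1 probe 2 ranged from -0.054 to 0.111, KREMEN1 probe 3 from -0.023 to 0.016 and the second WNT3A probe from -0.168 to 0.035. WLS probe 1 lost its pass in 15 of 20 alternatives and turned in 1 of these 15, without scaling. The causes were not tested. WNT3A probe 1, WNT4, FZD4, the brighter DKK3 probe, KREMEN1 probe 1 and GSK3B kept direction and passed in all 20 alternatives. The replicate block, the methods' t-test, untrended limma and the filters on dim probes do not alter a difference, so there only the pass could be lost.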
